A study of Mus musculus with 4 samples.

Results

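The genes of tetraspanins, of the ESCRT machinery and of exosome release made up 54 of the 24063 gene symbols counted in lung endothelial cells (ECs) after unilateral pneumonectomy (PNX). Members were taken by symbol, as every Tspan or Chmp followed by a number and a list of named exosome genes. They comprised 27 tetraspanin genes (20 named Tspan and 7 named Cd), 19 genes of ESCRT-0 to ESCRT-III and the VPS4 ATPases, 4 Rab GTPases, Pdcd6ip (Alix) and Sdcbp (syntenin), the sphingomyelinase gene Smpd3, and Tspan2os, an antisense RNA whose symbol met the rule. Of these, 52 had enough counts for a test among the 16208 genes tested. Tspan10 had 0, 0, 0 and 1 counts in the 4 libraries and Tspan2os had 6 to 9, and neither was tested.

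The RNA came from C57BL6J mice of 8 weeks, labelled male. Their lungs were taken 7 days after removal of the left lung (post-PNX) or after thoracotomy without removal (sham). The interval after the sham operation is not given. ECs were collected from dissociated lungs with beads against CD31, and each group had 2 libraries, each pooled from 2 mice. No transgene, knockout or drug separated the groups, and thoracotomy was common to both. The study asked how pulmonary artery pressure acts on ECs through the co-activator YAP1 and also worked with exosomes of post-PNX lungs, which are not the RNA measured here. All values below are RNA of the collected cells, and neither exosome number nor release was measured in these libraries.

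The libraries held between 41367438 and 50952879 counts with 1 transcript per symbol, so that 3 counts corresponded to between 0.0589 and 0.0725 CPM, the count scaled to the library total. Libraries of a group were close to each other, with a median SD of 0.036 on the log2 scale. Not a read (0 counts) was assigned to the 44 genes of chromosome Y in any library, and Xist, expressed from the inactive X chromosome of females, had between 29890 and 36875 counts in all 4, which goes against the label male in both groups alike. Markers of other cell types than ECs were present in all libraries, and none of the markers used was at 0, although the methods describe a FACS check for cells with CD31 and VE-cadherin and without CD45. Ptprc, the gene of CD45, had between 11422 and 11665 normalized counts, and Sftpc, a surfactant gene of alveolar epithelium, had a mean FPKM of 2893 in sham and 1889 in post-PNX libraries. Several lists moved with the group. Summed over each list, 12 endothelial markers held between 13843 and 13932 CPM in sham and between 11379 and 11431 in post-PNX libraries (10 lower, 1 higher), although Pecam1, which encodes the CD31 used for collection, had a log2 fold change of -0.0087. All 7 epithelial markers were lower (8792 to 8851 against 5282 to 5365), as were 4 of 4 B cell (126.4 to 126.5 against 77.8 to 78.8) and 6 of 6 T cell markers (43.2 to 43.9 against 25.1 to 25.3). All 7 macrophage markers were higher (3562 to 3576 against 4627 to 4654), as were 4 of 4 mesothelial markers (117 to 120.4 against 351 to 353), 4 of 4 dividing-cell markers (55.5 to 56.7 against 460.3 to 467), 3 of 4 fibroblast markers (571 to 574 against 1596 to 1598), 3 of 4 mural, 3 of 5 platelet, 4 of 6 leukocyte and 3 of 3 neutrophil markers, while the 3 NK cell markers held 8.59 to 8.89 against 7.28 to 8.34. In such bulk samples, fewer cells of a type and less RNA per cell cannot be told apart, and the part of these shifts in the values below was not tested beyond the scaling given at the end.

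**Figure D1:**
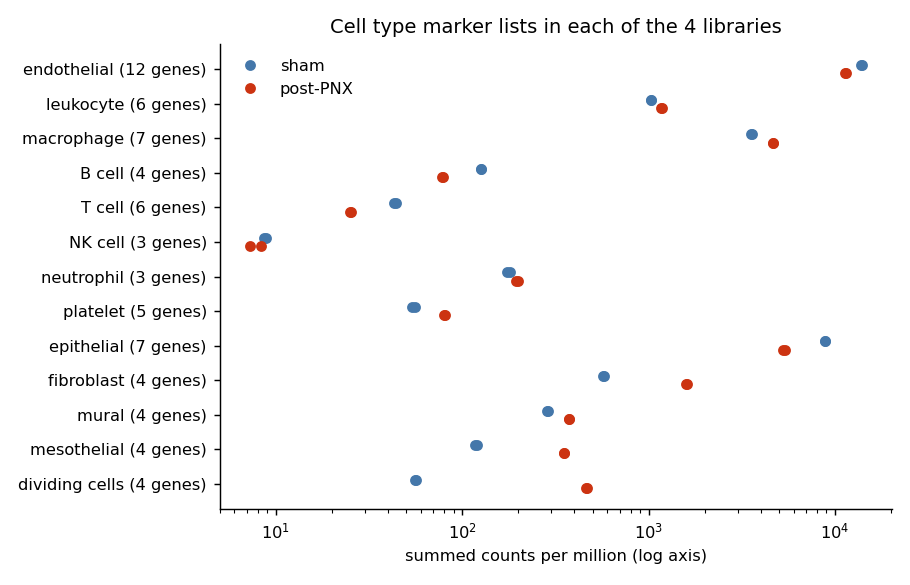
Summed CPM of each cell type marker list (log axis) in the 2 sham (blue) and 2 post-PNX (red) libraries, 1 point per library. Endothelial, epithelial, B cell and T cell lists lie lower and macrophage, fibroblast, mesothelial and dividing-cell lists higher in post-PNX libraries, and the 2 libraries of a group nearly coincide.

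Exosomes are small vesicles that form when the membrane of a late endosome buds inward, which makes a multivesicular body, and are set free when this body fuses with the cell surface. The ESCRT complexes gather ubiquitinated cargo and cut off the inward buds, syntenin and Alix connect syndecans to the same machinery, and neutral sphingomyelinase makes ceramide, which can bend the membrane without ESCRT. Tetraspanins cross the membrane repeatedly, gather integrins, proteases and receptors into patches, and are abundant on exosomes. Rab GTPases carry the multivesicular body to the cell surface.

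By the study's rule, which asks for an adjusted p under 0.01 and a log2 fold change over 1, 1 member was higher in post-PNX ECs, Smpd3, where 5.9% of all genes tested were higher. No member was lower by this rule in edgeR, at an unadjusted p under 0.05 (0 members) or in DESeq2 (0 members), where 1.66% of all genes tested were lower. With the adjusted p alone and no minimum fold, 17 of 52 members were higher and 17 lower, while 29.3% of all genes tested were higher and 27.8% lower, and 65.4% of the members against 57.1% of all genes were called in either direction. The changes were small. The median size of a member's log2 fold change was 0.15 and that of all genes 0.22, and 31 members (59.6%) against 46.2% of all genes lay within 0.2 of no change.

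By role, of 26 tetraspanins tested, 9 were higher, 12 lower and 5 not called, with a median size of change of 0.26. Of 19 ESCRT and VPS4 genes, 4 were higher, 5 lower and 10 not called, with a median size of 0.083, and 16 of them (84.2%) lay within 0.2 of no change.

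**Figure D2:**
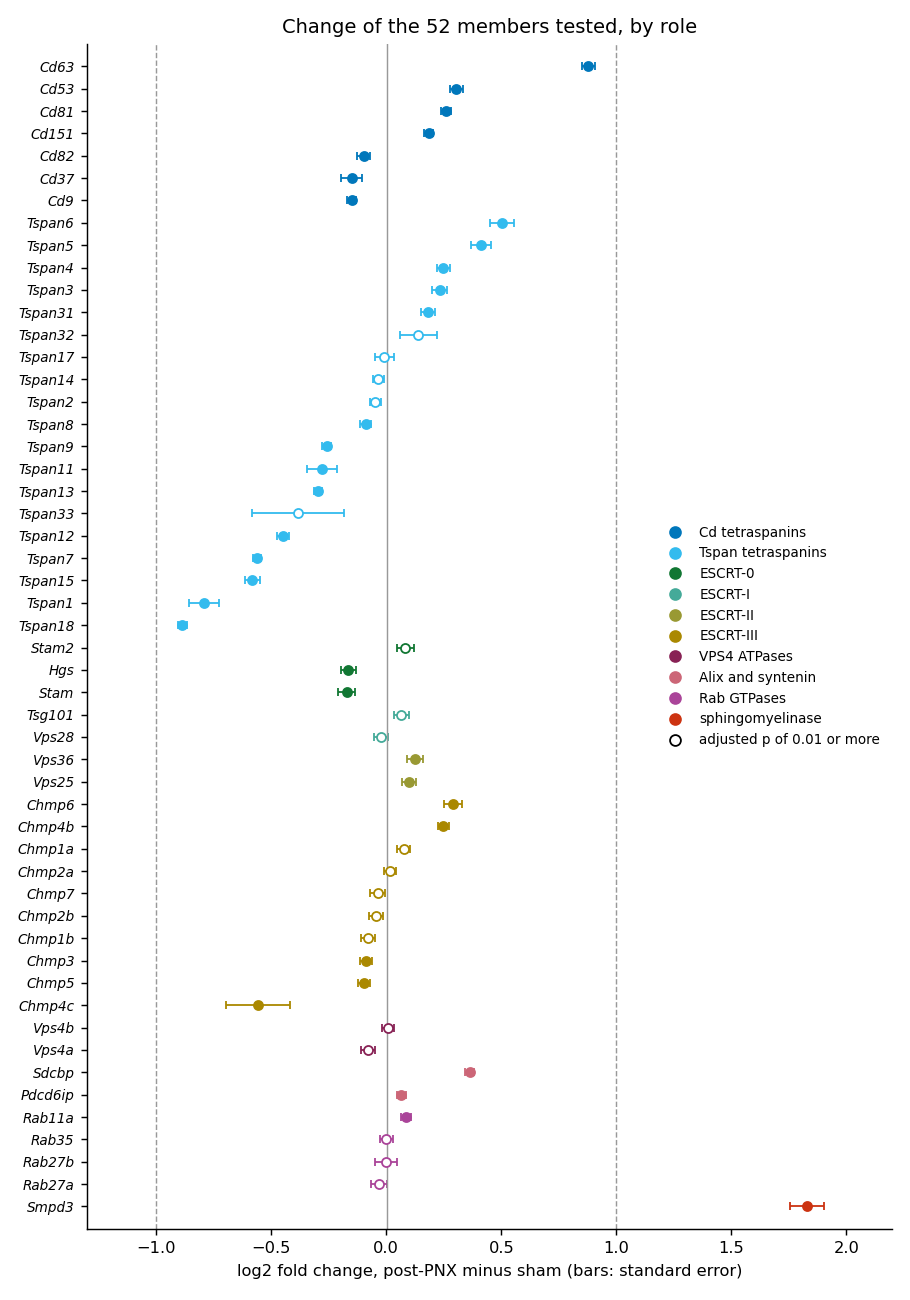
Log2 fold change of the 52 members tested, post-PNX minus sham, ordered by role (colour) and within a role by size, with bars for the standard error, 2 libraries per group. Filled points have an adjusted p under 0.01, the grey line is the median of all genes tested, dashed lines mark 1 and -1, and Smpd3 at 1.83 is the point beyond them, with Cd63 at 0.88 and Tspan18 at -0.89 the next in either direction.

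Smpd3 encodes neutral sphingomyelinase 2, the enzyme that makes ceramide for ESCRT-independent budding (chromosome 8, 106252548 to 106337965, GRCm38.p6). Its normalized counts were 234 and 235 in the sham and 835 and 831 in the post-PNX libraries. Every post-PNX library stood far above both sham libraries, with a log2 fold change of 1.83 (SE 0.074, adjusted p = 3.66e-31), which is 3.55-fold. Leaving out any library gave between 1.82 and 1.83. The level stayed low per length of transcript, at a mean FPKM of 0.62 in sham and 2.21 in post-PNX libraries, and among the tetraspanins tested Tspan33 alone was lower in sham. Exons of Smpd3 overlap those of Prmt7 on the other strand over 247 bases, and Prmt7 itself was not called (log2 fold change 0.071, adjusted p = 0.296). Smpd1, a lysosomal sphingomyelinase gene, had 0.19, and Smpd2, a further neutral sphingomyelinase gene, had -0.040 and was not called (both named after their values were seen). Endothelial scaling gave 0.46 and 0.23, both called higher, so these genes moved less than Smpd3 (2.10) there too. Fibroblast, mesothelial, dividing-cell, macrophage, mural, platelet, leukocyte and neutrophil lists rose between the same groups, and their part in the rise of Smpd3 was not tested.

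The tetraspanins named Cd include those most used as exosome markers, and 4 of 7 were higher and 3 lower. Of all genes tested, 29.3% were higher and 27.8% lower. The 3 falls turned positive with endothelial scaling, where Cd9 and Cd82 were called higher and Cd37 was not called. Cd63, which cycles through late endosomes and is found in exosomes and in the storage granules of ECs, had 2861 and 2856 normalized counts in sham and 5269 and 5243 in post-PNX libraries (chromosome 10, 128896231 to 128912822). Both post-PNX libraries lay well above both sham libraries, with a log2 fold change of 0.88 (SE 0.029, adjusted p = 5.9e-36), the largest rise among the tetraspanins. Cd81, a partner of integrins and of the B cell receptor complex, had 9948 and 9701 in sham and 11581 and 11938 in post-PNX libraries, a log2 fold change of 0.26 (SE 0.022, adjusted p = 2.61e-16). The 2 groups did not overlap, but the rise was small beside that of Cd63. Cd9, the third widely used exosome marker, had 28343 and 26936 in sham and 25121 and 24678 in post-PNX libraries. It went the other way, with a log2 fold change of -0.15 (SE 0.019, adjusted p = 5.96e-10), and this direction turned positive (0.12) when libraries were scaled to endothelial markers.

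Cd53, a tetraspanin of leukocytes, had 4598 and 4444 normalized counts in sham and 5617 and 5558 in post-PNX libraries, with a log2 fold change of 0.30 (SE 0.027, adjusted p = 1.19e-15). Cd37, which is most abundant in B cells, had 1368 and 1356 in sham and 1241 and 1212 after PNX, with a log2 fold change of -0.15 (SE 0.045, adjusted p = 0.00287). Each group of libraries lay apart for Cd37, but its call was lost without sham replicate 1 (adjusted p = 0.0224), sham replicate 2 (0.0101) or PNX replicate 2 (0.0337), and the sign turned to 0.12 with endothelial scaling. The macrophage list rose and the B cell list fell between the same groups, and their part in Cd53, Cd63 and Cd37 was not tested. Of the remaining members, Cd151, which binds laminin receptors, had 0.18, and Cd82 had -0.10, a call lost without sham replicate 2 (adjusted p = 0.0249), PNX replicate 1 (0.0215) or PNX replicate 2 (0.0215). With endothelial scaling Cd82 turned to 0.17 (adjusted p = 1.83e-06). Cd63 is nearly identical to its copy Cd63-ps over 858 bases (98.0% identity), so reads could be shared between them.

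**Figure D3:**
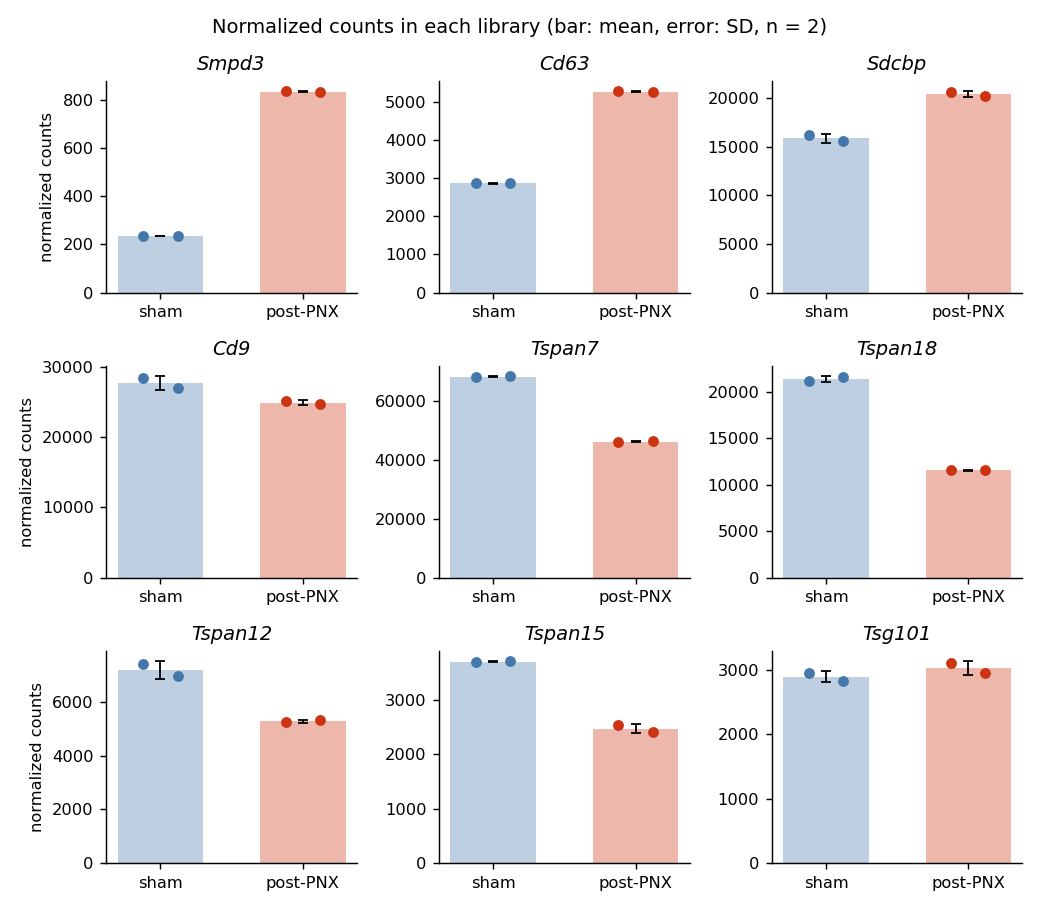
Normalized counts of 9 members in each library (points), with the group mean (bar, from 0) and SD (error bar, n = 2), sham in blue and post-PNX in red. Smpd3, Cd63 and Sdcbp stand higher and Tspan7, Tspan18, Tspan12 and Tspan15 lower in both post-PNX libraries, Cd9 lies slightly lower, and Tsg101 overlaps between the groups.

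Of the 19 tetraspanins named Tspan that were tested, 9 were lower, 5 higher and 5 not called. Of all genes tested, 29.3% were higher and 27.8% lower. With endothelial scaling, described at the end, 5 were lower. Tspan2, Tspan8, Tspan14, Tspan17 and Tspan32 then joined the 5 that were higher, and of all 16208 genes tested 9849 were higher and 1343 lower. Tspan18, which in ECs acts on the calcium channel Orai1, had 21157 and 21581 normalized counts in sham and 11535 and 11583 in post-PNX libraries (chromosome 2, 93201760 to 93334551). Both post-PNX libraries were far below both sham libraries, with a log2 fold change of -0.89 (SE 0.020, adjusted p = 1.11e-44), which is 1.85-fold lower. Tspan7, known for its part in receptor traffic in neurons, had 68207 and 68388 in sham and 46132 and 46376 in post-PNX libraries, a log2 fold change of -0.56 (SE 0.016, adjusted p = 1.08e-38). It was the most abundant member by FPKM, and its libraries fell into separate groups with little spread. Tspan15, which guides the protease ADAM10 to N-cadherin, had 3697 and 3705 in sham and 2529 and 2410.0 in post-PNX libraries, a log2 fold change of -0.58 (SE 0.032, adjusted p = 1.71e-24).

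Tspan1, a tetraspanin of epithelia, had 886 and 818 normalized counts in sham and 527 and 455 in post-PNX libraries, with a log2 fold change of -0.79 (SE 0.065, adjusted p = 1.01e-16). The groups lay apart here too, but the 2 libraries of a group differed more than those of Tspan18 or Tspan7, and the epithelial list fell between the same groups. Tspan13, the third most abundant tetraspanin by FPKM in sham, had 27594 and 27193 in sham and 22386 and 22233 after PNX, with a log2 fold change of -0.30 (SE 0.018, adjusted p = 3.81e-22), and was not called with endothelial scaling (-0.024, adjusted p = 0.229). Tspan12, named after its values were seen, is the coreceptor that joins Norrin signalling at the receptor FZD4 in retinal vessels. It had 7443 and 6984 in sham and 5255 and 5328 in post-PNX libraries, a log2 fold change of -0.45 (SE 0.026, adjusted p = 3.05e-23). Fzd4, the gene of that receptor, had 10749 and 10790.2 in sham and 6378 and 6253 after PNX, a log2 fold change of -0.77 (SE 0.023, adjusted p = 3.05e-38), so both were lower in both post-PNX libraries. The remaining falls were between -0.28 (Tspan11) and -0.090 (Tspan8), and that of Tspan8 was not called without PNX replicate 1 (adjusted p = 0.0117) or PNX replicate 2 (0.0114). With endothelial scaling Tspan8 turned to 0.18 (adjusted p = 3.24e-08) and Tspan9 to 0.014, which was not called.

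The stretches from 250 to 51 bases before the RefSeq start are shown for the falling members Tspan7, Tspan15 and Tspan12, whose start lay within 42 bases of the start of the counted transcript (RefSeq, GRCm38.p6, each 5′ to 3′ on the gene's strand). They were searched on both strands for CATTCC, a core that TEAD factors, the partners of YAP1, are known to bind, and for CCGGAA, a core bound by ETS factors of endothelium. Capitals mark a match. GGAATG, the other strand of CATTCC, begins with the GGAA that closes CCGGAA, so the motifs can overlap.
Tspan7, chrX:10484866-10485065, plus strand: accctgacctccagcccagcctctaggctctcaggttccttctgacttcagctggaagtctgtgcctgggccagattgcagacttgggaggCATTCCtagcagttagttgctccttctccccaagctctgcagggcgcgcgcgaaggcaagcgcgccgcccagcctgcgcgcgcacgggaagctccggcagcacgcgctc
Tspan15, chr10:62231269-62231468, minus strand: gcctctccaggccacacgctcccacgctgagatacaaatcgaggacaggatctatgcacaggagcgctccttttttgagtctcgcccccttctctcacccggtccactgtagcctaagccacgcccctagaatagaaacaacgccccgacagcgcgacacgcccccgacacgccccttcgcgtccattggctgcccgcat
Tspan12, chr6:21852584-21852783, minus strand: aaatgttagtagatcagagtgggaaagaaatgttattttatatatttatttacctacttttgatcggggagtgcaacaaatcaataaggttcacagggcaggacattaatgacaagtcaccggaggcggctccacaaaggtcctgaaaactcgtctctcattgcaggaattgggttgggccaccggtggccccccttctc
CATTCC was found in the Tspan7 stretch and in neither of the others, and CCGGAA in none of the 3. Over the 32851 stretches of the same length in the table, 10.7% held CATTCC and 8.03% held CCGGAA. Of the 57 stretches that belonged to 45 members, 6 (10.5%) held CATTCC and 8 (14.0%) held CCGGAA, so CATTCC was about as frequent as elsewhere. The Tspan12 stretch lies within the annotated span of the gene, before an inner start, and that of Tspan15 reaches a few bases into its gene. A match describes letters and is no site of binding.

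The rises among the Tspan genes were moderate. Tspan6 had 864 and 818 normalized counts in sham and 1159.5 and 1232 in post-PNX libraries, a log2 fold change of 0.50 (SE 0.051, adjusted p = 3.61e-13). Tspan5, a partner of ADAM10, had 1324 and 1256 in sham and 1700.0 and 1737 after PNX, a log2 fold change of 0.41 (SE 0.043, adjusted p = 7.04e-13). Tspan4, which builds the migrasomes left behind by moving cells, had 4047 and 4070.4 in sham and 4844 and 4794 after PNX, a log2 fold change of 0.25 (SE 0.028, adjusted p = 5.68e-12). All 3 were higher in both post-PNX libraries than in either sham library. Tspan3 (0.23) and Tspan31 (0.18) followed, while Tspan32 (0.14) and Tspan2 (-0.048) were not called. Tspan31 shares 641 exon bases with Cdk4 on the other strand, which rose by 0.54 on the log2 scale, and Tspan4 shares 292 with Chid1, which rose by 0.25, so these 2 rises are uncertain where counting ignored strand.

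ADAM10, a protease that sheds Notch and cadherins, is steered by a subfamily of 6 tetraspanins (TspanC8), of which 5 were tested. Among them Tspan5 was higher, Tspan15 lower and Tspan14, Tspan17 and Tspan33 were not called. Their log2 fold changes were -0.035, -0.0085 and -0.38. Under endothelial scaling Tspan14 (0.24) and Tspan17 (0.26) were called higher and Tspan33 (-0.11) was not called. Adam10 itself had 9248 and 9347 normalized counts in sham and 10844 and 10719 in post-PNX libraries, a log2 fold change of 0.21 (SE 0.022, adjusted p = 2.27e-13). The laminin-binding integrin genes Itga3 and Itga6, whose products bind tetraspanins, had -0.27 and -0.26, against 0.00014 and 0.014 with endothelial scaling. Of the 11 relatives and partners tested, 5 were higher and 4 lower (6 and 2 with endothelial scaling), with log2 fold changes between -0.78 and 0.66. Of all 16208 genes tested, 4745 were higher and 4513 lower (9849 and 1343 with endothelial scaling). Prph2 had 0 counts in each library.

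Compared per length of transcript, Tspan7 was the most abundant tetraspanin, with a mean FPKM of 523 in sham and 356 in post-PNX libraries. Cd9 followed with 315 in sham and 285 in post-PNX libraries, and Tspan13 with 194 in sham and 159 in post-PNX libraries. These 3 held 57.9% and 57.6% of the summed tetraspanin FPKM in the sham and 50.9% and 50.8% in the post-PNX libraries. Tspan7 alone went from 29.1% and 29.5% to 22.5% and 22.7%, and Cd63 from 2.40% and 2.43% to 5.08% and 5.07%. The share of Cd9 lay between 17.3% and 18.3% in the 4 libraries, and both post-PNX shares were slightly above both sham shares. The summed FPKM of tetraspanins was 1797 and 1775 in sham and 1578 and 1569 in post-PNX libraries, while that of ESCRT and VPS4 genes was 515.2 and 515.5 against 526 and 528.

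**Figure D4:**
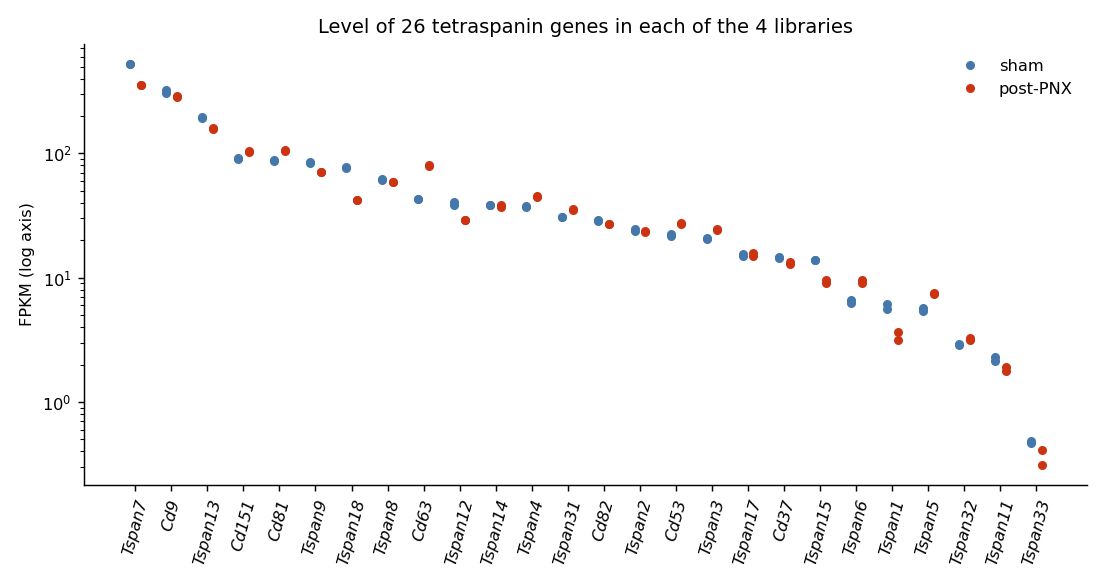
FPKM (log axis) of the 26 tetraspanin genes tested, ordered by the sham mean, in each sham (blue) and post-PNX (red) library. Levels run from 523 for Tspan7 to 0.47 for Tspan33 in sham, and the 2 libraries of a group nearly coincide for most genes.

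Changes of ESCRT genes were small, and most lay within 0.2 of no change. In ESCRT-0, which binds ubiquitinated cargo, Stam had 2106 and 2003 normalized counts in sham and 1836 and 1813 in post-PNX libraries, a log2 fold change of -0.17 (SE 0.038, adjusted p = 7.98e-05), with 0.10 under endothelial scaling. Hgs had -0.16, which turned to 0.11 (adjusted p = 0.00196) under the same scaling, and Stam2 had 0.083 and was not called. In ESCRT-I, Tsg101, a common exosome marker, had 2953 and 2829.8 in sham and 3100.2 and 2950.4 after PNX. The upper sham library of Tsg101 was at the level of the lower post-PNX library, and its log2 fold change of 0.066 (SE 0.033, adjusted p = 0.0742) was not called. Neither Tsg101 nor Vps28 (-0.023) reached an unadjusted p under 0.05, and DESeq2 called 0 of the 2. Under endothelial scaling Tsg101 (0.34), Vps28 (0.25) and Stam2 (0.36) were called higher. Tsg101 has a near-identical copy, Tsg101-ps, over 1176 bases.

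In ESCRT-II, Vps36 had 2351 and 2330.3 normalized counts in sham and 2542 and 2558 in post-PNX libraries, a log2 fold change of 0.12 (SE 0.034, adjusted p = 0.0013). The groups did not overlap, yet the call was lost without PNX replicate 2 (adjusted p = 0.0136) and in DESeq2 (0.042). Vps25, at 0.10, lost its call without sham replicate 1 (adjusted p = 0.0517), PNX replicate 1 (0.0215) or PNX replicate 2 (0.0153), and shares 1103 exon bases on the same strand with the endothelial gene Ramp2, which fell by 0.30 on the log2 scale.

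ESCRT-III, whose CHMP filaments close the bud, had 2 of 10 members higher, 3 lower and 5 not called. Of all genes tested, 29.3% were higher and 27.8% lower. Under endothelial scaling all 10 but Chmp4c (-0.29, not called) were higher. Chmp4b, the main filament subunit, had 6111 and 6259 normalized counts in sham and 7269 and 7422 in post-PNX libraries, a log2 fold change of 0.25 (SE 0.024, adjusted p = 8.24e-14). Chmp6, which links ESCRT-II to the filament, had 1688 and 1729 in sham and 2137 and 2031 after PNX, a log2 fold change of 0.29 (SE 0.039, adjusted p = 2.09e-09). These rises were the largest in the ESCRT groups. Chmp5 had 6048 and 5656 in sham and 5509 and 5451 after PNX, a log2 fold change of -0.10 (SE 0.027, adjusted p = 0.00148), which was not called without sham replicate 1 (adjusted p = 0.191) or PNX replicate 2 (0.0174), nor with counts summed over transcripts (0.0159), and turned to 0.18 with endothelial scaling. Chmp4c, which delays the cut between daughter cells, was low, with 142 and 162 in sham and 103 and 103 after PNX, a log2 fold change of -0.56 (SE 0.14, adjusted p = 0.000359). Its call was lost without sham replicate 2 (adjusted p = 0.0103), and it shares 330 exon bases with Snx16 on the other strand, which fell by 0.26 on the log2 scale. The 5 not called, Chmp1a, Chmp1b, Chmp2a, Chmp2b and Chmp7, lay between -0.079 and 0.075. Chmp3 (-0.088) lost its call without sham replicate 2 (adjusted p = 0.0211) or PNX replicate 1 (0.0997) and with counts summed over transcripts (0.0104), and turned to 0.18 with endothelial scaling. The VPS4 ATPases, which take the filaments apart, were not called by edgeR (Vps4a -0.077, Vps4b 0.0057) or by DESeq2, and 1 of them, Vps4a, had an unadjusted p under 0.05. Under endothelial scaling edgeR called Vps4a (0.20) and Vps4b (0.28) higher. Chmp1a, Chmp3, Vps4b and Sdcbp have pseudogene copies of at least 95% identity that could take up some of their reads.

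Among the genes that join the ESCRT complexes, 2 of 14 were higher, both past a log2 fold change of 1, and 5 lower. Of all genes tested, 29.3% were higher, 5.9% past that fold, and 27.8% lower. With endothelial scaling 12 of the 14 were higher and 0 lower in edgeR (0 at an unadjusted p under 0.05). That scaling raised the median of all genes by 0.27, and of the 16208 genes tested 9849 were then higher and 1343 lower. The 5 falls, of Vps37a, Vps37b, Mvb12b, Ubap1 and Usp8, turned positive, 3 of them called. Cep55, which brings ESCRT to the bridge between dividing cells, had 111 and 149.8 normalized counts in sham and 1436 and 1482 in post-PNX libraries, a log2 fold change of 3.49 (SE 0.077, adjusted p = 4.3e-45). All 4 dividing-cell markers rose between the same groups. Vps37d, an ESCRT-I subunit, was low at 36.2 and 38.7 in sham and 94.3 and 69.1 in post-PNX libraries, a log2 fold change of 1.14 (SE 0.21, adjusted p = 3.3e-06). The remaining members of the list had log2 fold changes between -0.21 and 0.12.

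Sdcbp encodes syntenin, the adaptor between syndecans and Alix. It had 16194 and 15542 normalized counts in sham and 20605 and 20195 in post-PNX libraries, a log2 fold change of 0.36 (SE 0.020, adjusted p = 2.28e-24), and both post-PNX libraries were higher than both sham libraries. Pdcd6ip, the gene of Alix, had 11582 and 11455 in sham and 11941 and 12170.5 after PNX, a log2 fold change of 0.065 (SE 0.021, adjusted p = 0.00514). Its groups did not overlap, but the call was lost without sham replicate 2 (adjusted p = 0.0337) or PNX replicate 2 (0.0893) and in DESeq2 (0.0515). Sdc4, a syndecan named after its values were seen, had 3639 and 3677 in sham and 5498 and 5502 after PNX, a log2 fold change of 0.59 (SE 0.027, adjusted p = 4.24e-28). The other syndecan genes moved less. Sdc3 was higher (0.25), and Sdc1 (-0.026) and Sdc2 (0.058) were not called. Under endothelial scaling Sdc4 had 0.86, and Sdc3 (0.52), Sdc1 (0.25) and Sdc2 (0.33) were called higher.

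The Rab GTPases of exosome release changed little in the main analysis. Endothelial scaling, which raised the median of all genes by 0.27, gave Rab11a 0.36, Rab35 0.27, Rab27b 0.27 and Rab27a 0.24, all called higher. Rab27a, which docks the multivesicular body at the cell surface, had 2865 and 3035 normalized counts in sham and 2943 and 2814 in post-PNX libraries, a log2 fold change of -0.032 (SE 0.033, adjusted p = 0.404). Rab27b, its close relative, had 1223 and 1122 in sham and 1141 and 1209 after PNX, a log2 fold change of -0.0021 (SE 0.049). For both genes the groups overlapped. Rab35, of the recycling route, had 4003 and 4048 in sham and 4015 and 4038 after PNX, a log2 fold change of 0.00043 (SE 0.028), again with overlapping groups. Rab11a, of recycling endosomes, had 8664 and 8321 in sham and 9034 and 8998 after PNX, a log2 fold change of 0.086 (SE 0.023, adjusted p = 0.00084), and this call was lost without sham replicate 2 (adjusted p = 0.0445) or PNX replicate 1 (0.0102) and with counts summed over transcripts (0.01).

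Of 35 further release genes, 16 were higher, 9 lower and 10 not called (26, 3 and 6 with endothelial scaling), with log2 fold changes between -0.79 and 0.64. Over all 16208 genes tested, 4745 were higher and 4513 lower, and with endothelial scaling 9849 and 1343. Flot1, the gene of the exosome marker flotillin-1, had 3739.6 and 3863 normalized counts in sham and 4012 and 3978 in post-PNX libraries, a log2 fold change of 0.073 (SE 0.029, adjusted p = 0.0247), which was not called. Flot1 was called higher (0.35) with endothelial scaling. Flot2 had 4064 and 4165 in sham and 4578 and 4656 after PNX, a log2 fold change of 0.17 (SE 0.028, adjusted p = 4.64e-07). Both were higher in each post-PNX library, by less than Cd63. The effectors that bind Rab27 were grouped after their values were seen. Exph5, Myrip, Mlph, Unc13d, Sytl2 and Sytl3 were lower, Sytl1 and Sytl4 were higher and Sytl5 was not called. With endothelial scaling the falls of Mlph (-0.046), Sytl2 (-0.023) and Sytl3 (-0.37) were not called, while Exph5 (-0.52), Myrip (-0.20) and Unc13d (-0.17) stayed lower. Exph5 had 926 and 977 in sham and 526 and 575 in post-PNX libraries, a log2 fold change of -0.79 (SE 0.060, adjusted p = 3.84e-18). Unc13d, needed for the fusion of lytic granules in leukocytes, had 1805 and 1804 in sham and 1368 and 1279 after PNX, a log2 fold change of -0.44 (SE 0.042, adjusted p = 3.03e-14).

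Directions of the small changes depended on what the libraries were scaled to. Scaling to endothelial markers assumes that their level per EC was the same in both groups, which was not tested. In the main analysis the 12 markers did not move alike, with log2 fold changes between -0.53 (Flt1) and 0.11 (Emcn). Scaling to the 12 endothelial markers in place of all genes (TMM) raised the median of all genes by 0.27 on the log2 scale. Of the 52 members, 40 were then higher and 5 lower, beside 9849 and 1343 of all genes tested. The 5 that stayed lower were Tspan18 (-0.61), Tspan1 (-0.52), Tspan15 (-0.31), Tspan7 (-0.29) and Tspan12 (-0.18), all tetraspanins. The sign turned for 19 members in all, and of the 17 that were lower with TMM, 6 were then higher (Cd9, Cd82, Chmp3, Chmp5, Hgs and Tspan8) and 6 not called. Cd63 (1.15) then joined Smpd3 (2.10) past a log2 fold change of 1.

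**Figure D5:**
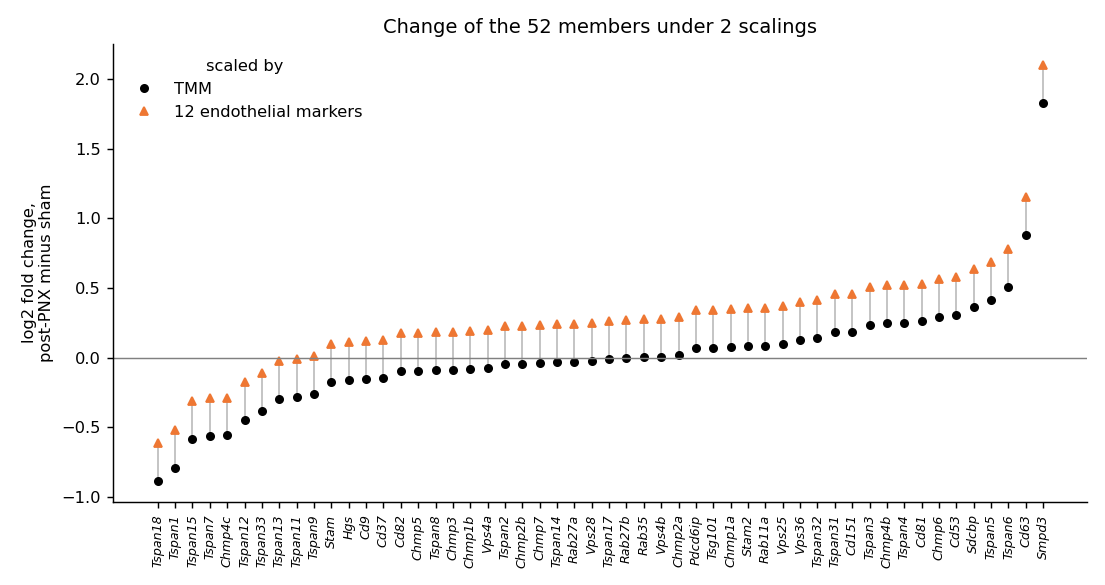
Log2 fold change of the 52 members, post-PNX minus sham, with libraries scaled by TMM (black circles) and to 12 endothelial markers (orange triangles), 2 libraries per group. Every triangle lies above its circle by about 0.27, which leaves Tspan18 and Tspan1 as the largest falls and Smpd3 and Cd63 as the largest rises.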

How the data were processed

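The authors deposited, for each of 33068 RefSeq transcripts in each of 4 libraries, whole-number read counts, FPKM (per length and depth) and TPM. According to the study's methods, a stranded mRNA kit and paired-end sequencing were used, and the submitters' processing notes name STAR and mm10. The counting program and its use of strand are not given in the sources used here. The 15 members with several transcripts had nearly equal counts for them, except Vps25, as if reads were counted for each transcript they overlap. The transcript with the most counts therefore stood for each symbol, and isoforms cannot be told apart. Counts were tested in R 4.3.3 with edgeR 4.0.16 (filterByExpr, TMM, quasi-likelihood F test, Benjamini-Hochberg over 16208 genes). DESeq2 1.42.0 was an alternative. Normalized counts were brought to the mean effective library size (TMM), and an SE is the log2 fold change divided by the square root of F. Deposited FPKM values compared levels between genes, and the deposited TPM values served only to check the tables. Scripts were tested on simulated data.

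Members and lists were chosen with earlier results of these data known. Values per library were given for members past fold and adjusted p, for the largest changes of each role, for the 3 highest FPKM in sham and for the best known exosome genes. The p-values measure only the spread between these pooled libraries, which was above counting noise but small beside the difference between the groups. The squared difference between 2 libraries relative to counting noise (chi-square per gene) would be near 1 from counting noise alone. It was 1.76 for sham and 1.53 for post-PNX. Between groups it was 133 (replicate 1) and 118 (replicate 2). Spread between single mice was not measured, so small adjusted p-values do not speak for it. Deviations of the same replicate number were hardly correlated between the groups (0.030). Since counting noise was a large part of these deviations, the value cannot decide whether the numbers paired the libraries. Alternatives were other scalings, filters, DESeq2, glmTreat, sums over transcripts, a replicate block and leaving out each library. Adgre1, Ighm and Ly6g, listed as markers, were not used here.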

Additional observations from a re-analysis of the deposited data

How the results depend on the processing

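Scaling to 12 endothelial markers gave 2 members higher past the fold, 40 higher and 5 lower, and turned the sign of 19 members. Among the 28 members given per library these were Cd37 (0.12), Cd9 (0.12), Chmp5 (0.18), Rab27a (0.24), Rab27b (0.27) and Stam (0.10), and the others were Cd82, Chmp1b, Chmp2b, Chmp3, Chmp7, Hgs, Tspan2, Tspan8, Tspan9, Tspan14, Tspan17, Vps28 and Vps4a. The DESeq2 Wald test called 13 higher and 10 lower. The 11 calls it lost were those of Cd37, Cd82, Chmp3, Chmp4c, Chmp5, Pdcd6ip, Rab11a, Tspan8, Tspan11, Vps25 and Vps36. Leaving out a library in turn, with the lone library assumed to vary like the pair, gave between 14 and 16 higher and between 13 and 15 lower, and 24 of the called members kept the call each time. The replicate block gave 17 and 17, with Smpd3 past the fold, and the same calls for the 28 members given per library, and the numbers name libraries without marking shared animals. An adjusted p under 0.05 gave 19 and 19. Counts summed over transcripts gave 17 and 15, without the calls of Chmp3, Chmp5 and Rab11a and with Tspan32 (0.14) higher. Values near 0 changed sign. Rab27a was 0.0088 without sham replicate 2 (range -0.075 to 0.0088 over the libraries left out), Rab27b between -0.060 and 0.064, and Rab35 between -0.0078 and 0.0083. Rab27b was 0.0017 by library size and 0.0018 with transcripts summed. Rab35 was -0.0016 with DESeq2 size factors, -0.00093 without a filter, -0.0017 in the DESeq2 Wald test and -0.00054 with transcripts summed. The cause of these changes was not tested. Depth set no limit for most members, but Tspan33, Chmp4c and Tspan10 had few counts.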
